A study of Homo sapiens with 9 samples.

Results

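The genes described here encode the receptors, the ligand and the proximal signalling proteins of TRAIL and FAS, 10 genes among the 26364 listed in each count file. They were chosen by symbol: the TRAIL ligand TNFSF10, its receptors TNFRSF10A, TNFRSF10B, TNFRSF10C and TNFRSF10D, the FAS receptor, the adaptor FADD, the caspases CASP8 and CASP10, and CFLAR. Every symbol was found in all 9 files, and 9 of the 10 had enough counts to be tested. TNFRSF10C did not. RNA came from MDA-MB-231, a human cell line from a breast adenocarcinoma of the triple-negative kind, grown for 48 hours in DMEM with FBS. All cells had been infected with a pLVX lentivirus and expressed it stably. The empty vector group carried pLVX alone, the MEL-18 WT group pLVX with wild-type MEL-18, and the MEL-18 T334A group pLVX with the mutant MEL-18 T334A, which cannot be phosphorylated at T334. Each group held 3 libraries, described as biological replicates. No source used here says whether a group was 1 infected line, so a construct's effect and a difference between infected lines cannot be told apart, and p-values speak only of how much these libraries varied. The cells also kept their own PCGF2, the gene of MEL-18.

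TRAIL and the FAS ligand are TNF family cytokines that trimerise receptors carrying an intracellular death domain. The receptors recruit FADD, which gathers caspase-8 and caspase-10 into a death-inducing signalling complex, where the caspases are activated and go on to cleave further caspases and BID. The product of CFLAR, c-FLIP, resembles caspase-8 without its protease activity and limits this step. TNFRSF10A (DR4) and TNFRSF10B (DR5) signal death, while TNFRSF10C (DcR1) has no death domain and TNFRSF10D (DcR2) only a truncated one, and both are known as decoys.

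The libraries held 31643722 to 37005302 counts, and 14738 genes were tested. PCGF2 ran from 22.2 to 23.8 CPM (counts per 1000000 of the scaled library) with the empty vector. It ran from 1279 to 1292 CPM with MEL-18 WT and from 1388.8 to 1450.7 CPM with MEL-18 T334A. Both MEL-18 groups were thus raised over the vector as labelled, while counts per gene cannot show which libraries carried T334A. Of the markers checked, VIM, KRT8, KRT18 and CD44 were high, KRT19, ERBB2 and EPCAM had group means of 86.6 to 115.8, 63.8 to 69.9 and 7.47 to 12.2 CPM, and ESR1, PGR and CDH1 of 0.144 CPM or less. Over 10 markers of lymphocytes, myeloid and endothelial cells, the summed level was 3.17 to 3.30, 1.63 to 2.62 and 1.35 to 2.14 CPM in the 3 groups, with CD3E, MS4A1 and TYROBP at or near 0. Most of the sum came from the endothelial CDH5 (0.948, 0.605 and 0.204 CPM) and PECAM1 (0.951, 0.474 and 0.330), the leukocyte PTPRC (0.635, 0.309 and 0.355) and the monocyte marker CD14 (0.471, 0.602 and 0.602), and the part of other cells in the results was not tested. Library sizes were scaled by TMM, and a gene was called at an adjusted p below 0.05 in edgeR's quasi-likelihood test over all tested genes. Values are CPM, given as mean ± SD (n = 3), and changes are log2 fold changes ± SE. Both comparisons with the empty vector used the same vector libraries.

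MEL-18 WT cells differed from vector cells most in the ligand, which was lower, and in FAS, which was higher. In MEL-18 T334A cells FAS was also higher than with the vector, while TNFSF10 was not called. In MEL-18 WT against the vector, 5 of the 9 tested genes were called, FAS higher and TNFSF10, TNFRSF10A, TNFRSF10B and CFLAR lower, beside 28.8% of all tested genes. With MEL-18 T334A the number was again 5, FAS and FADD higher and TNFRSF10B, TNFRSF10D and CFLAR lower, beside 45.9% of all genes. With library totals in place of TMM this became 3 calls, 2 higher and 1 lower. Between the MEL-18 groups 6 of 9 were called, 5 higher in MEL-18 T334A (TNFSF10, TNFRSF10A, TNFRSF10B, FADD and CASP10, beside 21% of all genes higher) and TNFRSF10D lower (beside 20%), or 40.9% of all genes in either direction. The libraries of both groups did not overlap for 7, 5 and 6 of the 9 genes in these comparisons, beside 42.7%, 51.5% and 48.7% of all genes. The median log2 fold change of the 9 genes was -0.11, -0.056 and 0.14 in the 3 comparisons, where that of all genes was -0.0017, -0.0022 and -0.0033.

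**Figure D1:**
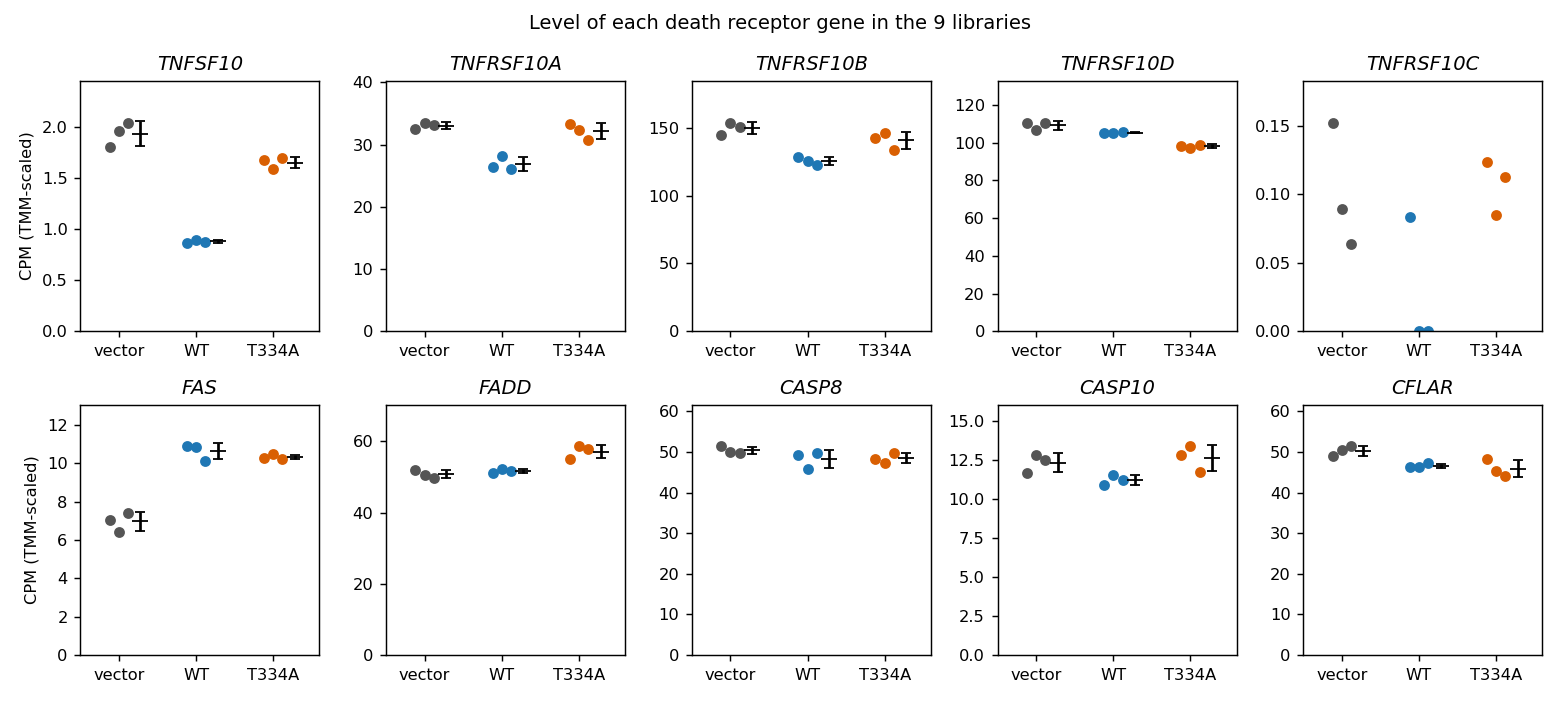
CPM of each gene in each library (points) by group, with the mean and SD beside them (SD not drawn for TNFRSF10C, which had 0 to 5 counts a library); all axes start at 0. TNFSF10 lies between 0.867 and 0.896 CPM in the MEL-18 WT libraries and at or above 1.58 CPM in the other 6, and FAS lies at or above 10.1 CPM in the 6 MEL-18 libraries and at or below 7.43 CPM in the vector libraries.

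TNFSF10, the TRAIL ligand itself, was a low transcript. It had 59, 66 and 64 reads in the vector libraries, 31, 33 and 29 in the MEL-18 WT libraries and 54, 56 and 60 in the MEL-18 T334A libraries. The 3 MEL-18 WT libraries stood apart from the other 6, and the MEL-18 T334A values lay below every vector value in CPM. TNFSF10 fell from 1.93 ± 0.12 to 0.878 ± 0.015 CPM with MEL-18 WT (log2 fold change -1.13 ± 0.17, edgeR adjusted p = 6.17e-06). Counted over the 3 libraries of each group, 93 reads stood against 189, a ratio of 0.455 with an exact 95% interval of 0.351 to 0.586 that covers counting error only. With MEL-18 T334A the level was 1.65 ± 0.058 CPM, a change of -0.23 ± 0.15 that was not called (adjusted p = 0.216). The difference between the MEL-18 groups was itself called, at 0.91 ± 0.17 (adjusted p = 1.09e-04). Among the 9 tested genes and 3 comparisons, the fall of TNFSF10 with MEL-18 WT was the 1 change that also passed a test against a minimum of 1.5-fold (adjusted p = 0.0250). The 40 tested genes around TNFSF10 on chromosome 3, 20 on each side, had a median of -0.11 in MEL-18 WT against the vector, and all 40 lay above TNFSF10.

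The promoters of TNFSF10 and FAS are shown because these were the members with the largest called changes. Sequences are from RefSeq (GRCh38.p14, whereas the counts were made on hg19) and give the 250 bases before an annotated start, 5′ to 3′. Stretches were searched for 5 of the 10 genes: TNFSF10, FAS, FADD, CASP8 and CFLAR. Those of the TNFRSF10 genes and CASP10 were not examined, so their promoters are not described. FAS had 3 starts, of which the first listed is shown. The TNFSF10 stretch is chr3:172523431-172523680 on the minus strand and the FAS stretch chr10:88990548-88990797 on the plus strand. Capitals mark matches to 6 motifs searched on both strands.
TNFSF10: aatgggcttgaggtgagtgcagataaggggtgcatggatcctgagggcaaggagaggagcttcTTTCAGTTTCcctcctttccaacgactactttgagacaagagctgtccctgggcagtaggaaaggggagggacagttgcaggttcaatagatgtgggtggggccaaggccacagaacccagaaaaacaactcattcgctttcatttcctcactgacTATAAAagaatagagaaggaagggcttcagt
FAS: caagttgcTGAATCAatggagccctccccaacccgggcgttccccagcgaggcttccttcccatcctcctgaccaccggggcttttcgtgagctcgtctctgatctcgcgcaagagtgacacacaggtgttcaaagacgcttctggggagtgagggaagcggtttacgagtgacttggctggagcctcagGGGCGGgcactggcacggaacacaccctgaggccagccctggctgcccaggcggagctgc

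The TNFSF10 stretch held the TATA box letters TATAAA, present in 10.7% of 35116 promoter stretches of this length, and a tandem repeat on its other strand (GAAA, any 2 bases, GAAA), present in 3.02%. TNFSF10 is known as an interferon-stimulated gene, and such repeats are of the kind that interferon regulatory factors bind. Its stretch was 49.6% G and C with 2 CpG dinucleotides, against medians of 58.0% and 11 over all stretches. The FAS stretch held a GC box, GGGCGG (42.6% of stretches), and the AP-1 letters TGANTCA (6.57%), and was 62.8% G and C with 14 CpG. The AP-1 letters did not match in the stretches of the other 2 FAS starts. CCAAT (32.0% of stretches) and the STAT letters TTCNNNGAA (6.57%) matched neither. None of the motifs overlapped another in these stretches. Among the other genes searched, TATAAA matched in a CASP8 stretch, and the AP-1 letters in a CASP8 and a CFLAR stretch. GC boxes matched in stretches of FADD, CASP8 and CFLAR, and CCAAT and the STAT letters in stretches of CASP8. The tandem repeat matched in none of them. A match describes letters only.

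FAS, the receptor of the FAS ligand, had 7.05, 6.42 and 7.43 CPM in the vector libraries, 10.9, 10.9 and 10.1 CPM with MEL-18 WT, and 10.3, 10.5 and 10.2 CPM with MEL-18 T334A, from 216 to 400 reads a library. The libraries of both MEL-18 groups lay above all vector libraries and overlapped each other. FAS rose from 6.96 ± 0.51 to 10.6 ± 0.42 CPM with MEL-18 WT (0.61 ± 0.073, edgeR adjusted p = 2.64e-07). With MEL-18 T334A it rose to 10.3 ± 0.13 CPM (0.57 ± 0.074, adjusted p = 4.35e-07), against the same vector libraries. The MEL-18 groups differed by -0.043 ± 0.067, which was not called (adjusted p = 0.649).

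Around FAS on chromosome 10, the 40 neighbours had medians of 0.090 with MEL-18 WT and 0.12 with MEL-18 T334A. FAS lay above all 40 in the first comparison and above 37 in the second. The annotation places ACTA2, smooth muscle actin, and the antisense RNA FAS-AS1 over FAS, and whether reads were counted by strand is not given in the sources used here. ACTA2 stood at 1.12 ± 0.18, 1.68 ± 0.18 and 1.91 ± 0.23 CPM in the 3 groups. Like FAS it was called higher with MEL-18 WT (0.58 ± 0.18, edgeR adjusted p = 0.0141). It was also called higher with MEL-18 T334A (0.76 ± 0.17, edgeR adjusted p = 7.44e-04), where it lay above FAS. FAS-AS1 stood at no more than 0.241 CPM in any library. The part of ACTA2 and FAS-AS1 in the FAS counts was not tested. The FAS ligand gene, FASLG, was at most 0.0595 CPM in any vector library, 0.0271 CPM in any MEL-18 WT library and 0.0310 CPM in any MEL-18 T334A library.

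Per kilobase of exon, TNFRSF10B and TNFRSF10D had the highest means of the set over all 9 libraries, with FADD close to TNFRSF10D. The order within each group was not compared. Over all 9 libraries TNFRSF10B stood at 33.4 CPM per kilobase, TNFRSF10D at 29.5, FADD at 28.9, CASP8 at 12.5 and TNFRSF10A at 11.3. FAS followed at 3.60, CFLAR at 2.31, CASP10 at 1.804, TNFSF10 at 0.762 and TNFRSF10C at 0.0460 CPM per kilobase. Lengths are exon unions of GENCODE release 29, so the rank of CFLAR, with 20.6 kilobases of annotated exon, depends on how much of it these cells transcribe.

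TNFRSF10A, or DR4, had 32.4, 33.5 and 33.1 CPM in the vector libraries, 26.3, 28.1 and 26.1 CPM with MEL-18 WT, and 33.3, 32.4 and 30.8 CPM with MEL-18 T334A. The MEL-18 WT libraries lay below the other 6. TNFRSF10A fell with MEL-18 WT by 0.30 on the log2 scale (SE 0.044, edgeR adjusted p = 7.76e-06). It was not called with MEL-18 T334A (-0.039 ± 0.043, adjusted p = 0.489). In MEL-18 T334A it was higher than in MEL-18 WT by 0.26 ± 0.044 (adjusted p = 3.43e-05).

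TNFRSF10B, or DR5, had 145.1, 153.9 and 150.6 CPM with the vector, 128.3, 125.3 and 122.5 CPM with MEL-18 WT, and 142.3, 146.1 and 134.0 CPM with MEL-18 T334A. As for DR4, the MEL-18 WT libraries were the lowest, without overlap, while vector and MEL-18 T334A libraries overlapped. It fell with MEL-18 WT by 0.26 (SE 0.033, edgeR adjusted p = 1.06e-06). With MEL-18 T334A it was lower by a smaller amount, -0.090 ± 0.033 (adjusted p = 0.0273). That call was lost with library totals alone (-0.052, adjusted p = 0.236) and without empty vector replicate 2 (-0.067, adjusted p = 0.167), empty vector replicate 3 (-0.081, 0.0895) or MEL-18 T334A replicate 3 (-0.053, 0.186). Against MEL-18 WT, TNFRSF10B was higher in MEL-18 T334A by 0.17 ± 0.033 (adjusted p = 2.27e-04). The gene overlaps RHOBTB2, at 33.1 ± 1.32, 27.97 ± 0.37 and 36.4 ± 1.94 CPM in the 3 groups.

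TNFRSF10D, the decoy DcR2, followed another order. It had 110.5, 106.7 and 110.7 CPM with the vector, 105.3, 105.0 and 105.6 CPM with MEL-18 WT, and 98.5, 97.1 and 99.0 CPM with MEL-18 T334A. The MEL-18 T334A libraries lay below the other 6, and the MEL-18 WT libraries just below the vector libraries. TNFRSF10D was not called with MEL-18 WT (-0.053 ± 0.029, edgeR adjusted p = 0.193) and fell with MEL-18 T334A by 0.15 (SE 0.030, adjusted p = 1.16e-04). Between the MEL-18 groups it was lower in MEL-18 T334A, at -0.10 ± 0.030 (adjusted p = 0.00738).

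The ratio of TNFRSF10D to TNFRSF10B reads was 0.693 to 0.761 in the vector libraries, 0.821 to 0.862 in the MEL-18 WT libraries and 0.665 to 0.739 in the MEL-18 T334A libraries. The ratio was thus higher in the MEL-18 WT libraries than in any other library. From vector to MEL-18 WT, TNFRSF10B went from 149.9 to 125.4 CPM and TNFRSF10D from 109.3 to 105.3 CPM, so the decoy itself did not rise. This ratio is given as a description and was not tested.

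TNFRSF10C, the decoy DcR1, had 5, 3 and 2 reads with the vector, 3, 0 and 0 with MEL-18 WT, and 4, 3 and 4 with MEL-18 T334A. The sums of 10, 3 and 11 reads correspond to 0.101, 0.0283 and 0.108 CPM, with exact 95% Poisson intervals of 0.0484 to 0.185, 0.00585 to 0.0828 and 0.0540 to 0.193 CPM. The libraries with 0 reads allow up to 0.0811 and 0.0902 CPM (3 reads of the total). The ratio of MEL-18 WT to vector reads was 0.277, with an interval of 0.0490 to 1.08, so no difference was detectable at this depth. TNFRSF10 genes are close relatives, and how reads shared between relatives or between TNFRSF10C and the overlapping LOC254896 were counted is not given in the sources used here.

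**Figure D2:**
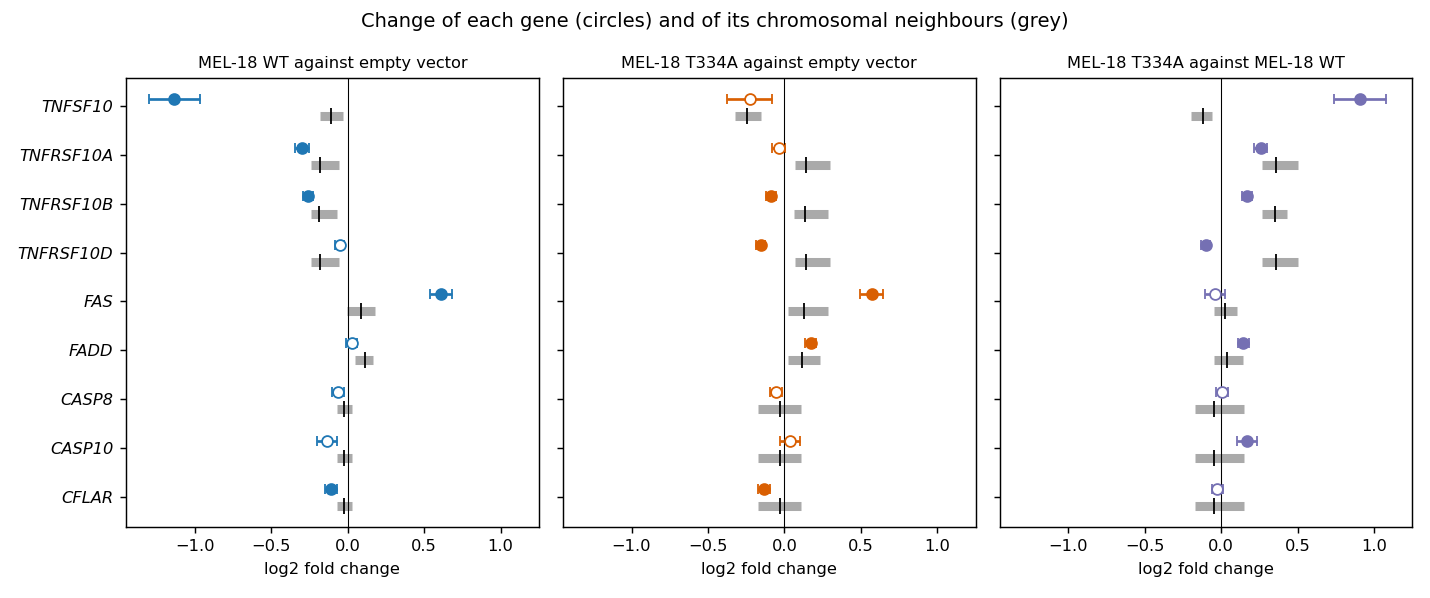
Log2 fold change ± SE of the 9 tested genes (circles, filled where called by edgeR) in the 3 comparisons, with the median (tick) and quartiles (grey bar) of the 40 tested genes nearest to each on its chromosome. TNFSF10 with MEL-18 WT and between the MEL-18 groups, FAS with both constructs against the vector, and TNFRSF10D in both comparisons of MEL-18 T334A lie outside the grey bars by more than 0.2, while TNFRSF10A and TNFRSF10B with MEL-18 WT lie next to theirs.

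The TNFRSF10 genes lie side by side on chromosome 8, in a stretch whose expression shifted as a block, which was known when the genes were chosen. The nearest tested genes outside the cluster were, on one side, RHOBTB2, BIN3 and CCAR2, and, on the other, CHMP7, R3HCC1 and the lysyl oxidase LOXL2. In MEL-18 WT against the vector these 6 had log2 fold changes of -0.24, -0.056, -0.15, -0.24, -0.18 and -0.23. With MEL-18 T334A they stood at 0.14, 0.24, 0.19, 0.11, 0.13 and 0.26. These 6 genes thus lay below 0 with MEL-18 WT and above 0 with MEL-18 T334A, while a few others of the stretch, such as LZTS1 (1.07 and 1.81) and PTK2B (0.77 and 0.94), were higher in both. Of the 40 neighbours of TNFRSF10A, 22 were called lower and 3 higher with MEL-18 WT, and 26 higher and 1 lower with MEL-18 T334A. Between the MEL-18 groups, 35 were called higher and 0 lower. The shares of all tested genes, in the same order, were 14.4% and 14.4%, 23.4% and 22.5%, and 21% and 20%. Over the 502 tested genes of chromosome 8 the medians were -0.019, 0.061 and 0.065, and over the 40 neighbours -0.18, 0.14 and 0.36.

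Against these neighbours the receptors looked different. With MEL-18 WT, TNFRSF10A and TNFRSF10B lay at -0.12 and -0.068 from the neighbours' median, and TNFRSF10D lay above it by 0.13. There, 35, 33 and 9 of 40 neighbours lay above TNFRSF10A, TNFRSF10B and TNFRSF10D. In MEL-18 T334A cells the neighbours were mostly higher, and TNFRSF10A, TNFRSF10B and TNFRSF10D lay below their median at -0.18, -0.22 and -0.29. Of the 40 neighbours, 37 were above TNFRSF10B and 37 above TNFRSF10D in that comparison. Between the MEL-18 groups, 39 of 40 neighbours were above TNFRSF10D, which lay below their median at -0.46.

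In a fit that takes out the neighbours' shift, the calls of TNFRSF10A and TNFRSF10B with MEL-18 WT were lost (-0.11, edgeR adjusted p = 0.0905, and -0.056, adjusted p = 0.253). Against the vector, TNFRSF10A was then called lower with MEL-18 T334A (-0.17, edgeR adjusted p = 0.00262). TNFRSF10B stayed called lower in that comparison (-0.21, edgeR adjusted p = 9.44e-06). TNFRSF10B, higher in MEL-18 T334A than in MEL-18 WT without this step, was lower with it (-0.16, adjusted p = 6.66e-04). TNFRSF10D was called higher with MEL-18 WT (0.14, adjusted p = 6.14e-04). Its lower level in MEL-18 T334A was larger, at -0.29 against the vector and -0.43 against MEL-18 WT (adjusted p = 1.61e-08 and 1.06e-11). TNFSF10 with MEL-18 WT (-1.01, adjusted p = 4.14e-05) and FAS with MEL-18 WT (0.51, 5.66e-06) and MEL-18 T334A (0.45, 2.05e-05) remained called. These p-values take the neighbours' shift as known and leave out its error.

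**Figure D3:**
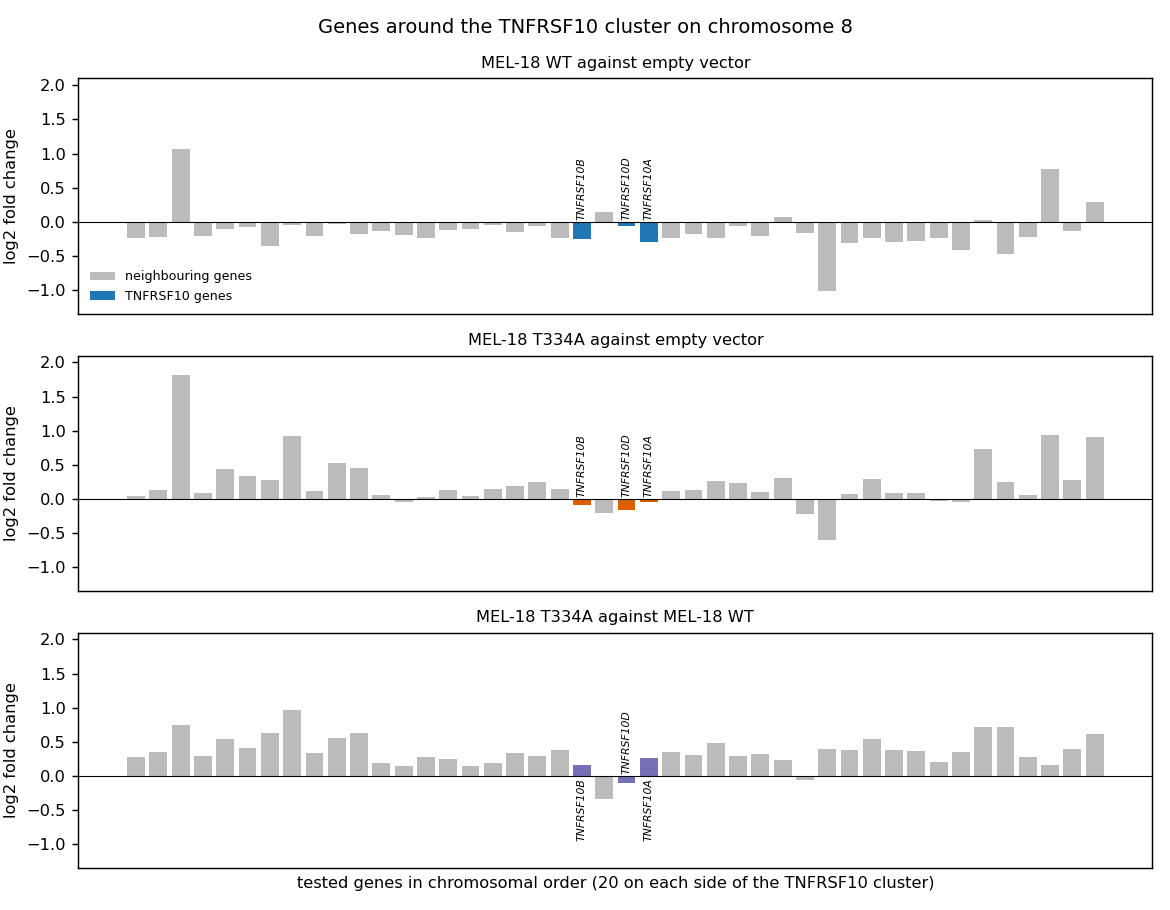
Log2 fold change of the tested genes around the TNFRSF10 cluster, in chromosomal order with no distance scale, for the 3 comparisons (bars from 0, coloured for TNFRSF10 genes, grey for others). Grey bars are mostly below 0 with MEL-18 WT and mostly above 0 with MEL-18 T334A, where TNFRSF10B, TNFRSF10D and TNFRSF10A are below 0.

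FADD, the adaptor that links the receptors to the caspases, had 51.9, 50.6 and 49.7 CPM with the vector, 51.04, 52.3 and 51.8 CPM with MEL-18 WT, and 55.0, 58.6 and 57.7 CPM with MEL-18 T334A. Vector and MEL-18 WT libraries overlapped, and MEL-18 T334A libraries lay above both. FADD rose with MEL-18 T334A by 0.17 ± 0.036 (edgeR adjusted p = 2.95e-04) and was higher there than in MEL-18 WT by 0.14 ± 0.035 (adjusted p = 0.00173). It was not called with MEL-18 WT (0.027 ± 0.036, adjusted p = 0.635). On chromosome 11, the median of the 40 genes around it was 0.11 with MEL-18 T334A, and with their shift taken out FADD was no longer called against the vector (0.049, adjusted p = 0.293). In the same fit it was still called higher in MEL-18 T334A than in MEL-18 WT (0.11, edgeR adjusted p = 0.0230).

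CASP8, the initiator caspase of the complex, was not called in any comparison. It had 51.4, 50.1 and 49.7 CPM with the vector, 49.2, 45.8 and 49.8 CPM with MEL-18 WT, and 48.2, 47.4 and 49.8 CPM with MEL-18 T334A. The ranges of all 3 groups overlapped. Its log2 fold changes were -0.063 ± 0.038, -0.056 ± 0.038 and 0.0062 ± 0.038 (edgeR adjusted p = 0.238, 0.239 and 0.917).

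CASP10, the related initiator, had 11.7, 12.8 and 12.5 CPM with the vector, 10.9, 11.5 and 11.2 CPM with MEL-18 WT, and 12.8, 13.4 and 11.7 CPM with MEL-18 T334A. The MEL-18 WT libraries were the lowest, without overlap. It was called between the MEL-18 groups alone, higher in MEL-18 T334A by 0.17 ± 0.065 (edgeR adjusted p = 0.0372). The call was lost with DESeq2 (adjusted p = 0.101) and without MEL-18 WT replicate 1 (0.119), MEL-18 WT replicate 3 (0.0761), MEL-18 T334A replicate 1 (0.0845) or MEL-18 T334A replicate 2 (0.172). Over the removal of each library in turn it ranged from 0.00826 to 0.172. With the neighbours' shift taken out CASP10 was still called between the MEL-18 groups (0.20, edgeR adjusted p = 0.0215).

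CFLAR, which encodes c-FLIP, had 48.9, 50.5 and 51.4 CPM with the vector, 46.4, 46.3 and 47.2 CPM with MEL-18 WT, and 48.2, 45.4 and 44.1 CPM with MEL-18 T334A. All 6 MEL-18 libraries lay below the 3 vector libraries. CFLAR fell with MEL-18 T334A by 0.13 (SE 0.038, edgeR adjusted p = 0.00560) and with MEL-18 WT by 0.11 (SE 0.038, adjusted p = 0.0329). The second call was lost under several settings: DESeq2 (adjusted p = 0.0794), library totals (0.0997), no filter on low counts (0.0532), the replicate block (0.0503) and the removal of any of 5 libraries (0.0639 to 0.146: empty vector replicates 2 and 3 and each MEL-18 WT replicate). The first was lost with library totals (0.0548). The ratio of CFLAR to CASP8 reads was 0.952 to 1.03, 0.942 to 1.01 and 0.886 to 0.999 in the 3 groups, which overlapped. CFLAR, CASP10 and CASP8 are neighbours on chromosome 2, beside ORC2, FAM126B and NDUFB3 on one side and TRAK2, STRADB and ALS2CR11 on the other. The medians of the 40 genes around them were -0.022, -0.032 and -0.047, and with the neighbours' shift taken out CFLAR was called in none of the comparisons. The antisense RNA CFLAR-AS1 stood at 0.337 ± 0.055, 0.188 ± 0.050 and 0.204 ± 0.030 CPM.

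The rest of the pathway was read from 3 lists, chosen by function, of 64 genes in the files, 57 of them tested. With MEL-18 WT 7 were higher and 16 lower, 40.4% of the 57 against 28.8% of all genes, and 15 in all were called without empty vector replicate 2. With MEL-18 T334A 8 were higher and 17 lower, 43.9% against 45.9%, or 11 and 11 with library totals. Between the MEL-18 groups 9 were higher and 12 lower, 36.8% against 40.9%. The median log2 fold changes of these genes were -0.030, -0.00044 and 0.0080. A test against 1.5-fold left 1, 2 and 1 of them.

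Among other death receptors, decoys and ligands, 6 of 12 were tested, and 3, 3 and 5 were called, or 50%, 50% and 83.3% beside 28.8%, 45.9% and 40.9% of all genes. The ligand gene TNFSF15 (TL1A) fell in both MEL-18 groups, from 6.38 CPM with the vector to 3.35 CPM with MEL-18 WT (-0.92 ± 0.14, edgeR adjusted p = 8.84e-06) and 2.14 CPM with MEL-18 T334A (-1.57 ± 0.15, 3.86e-09). Its receptor TNFRSF25 (DR3) was scarce and rose with MEL-18 T334A from 0.624 to 1.57 CPM (1.32 ± 0.22, adjusted p = 1.49e-05). EDA2R, the receptor of ectodysplasin A2, rose with MEL-18 WT (0.74 ± 0.17) and was lower in MEL-18 T334A than in MEL-18 WT (-1.24 ± 0.19, adjusted p = 5.90e-06). TNFRSF21 (DR6) rose with MEL-18 T334A by 0.20 ± 0.034, and the TNF receptor TNFRSF1A fell with MEL-18 WT by 0.14 (SE 0.038). The TNF gene and LTA were too low to test.

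Of the adaptors, kinases and ubiquitin enzymes, all 23 were tested, with 3 higher and 6 lower, 4 higher and 8 lower, and 3 higher and 4 lower in the 3 comparisons. These were 39.1%, 52.2% and 30.4% of the list, beside 28.8%, 45.9% and 40.9% of all genes, so the last lay below that share. Of all genes, 14.4%, 23.4% and 21% were called higher and 14.4%, 22.5% and 20% lower. BIRC3 (cIAP2), a ubiquitin ligase that restrains RIPK1-dependent death, fell with MEL-18 WT (-0.43 ± 0.074) and with MEL-18 T334A (-0.59 ± 0.076, edgeR adjusted p = 3.91e-07). CYLD, a deubiquitinase of the same complexes, fell with MEL-18 T334A (-0.37 ± 0.031) and less with MEL-18 WT (-0.10 ± 0.030). It was lower in MEL-18 T334A than in MEL-18 WT (-0.27 ± 0.031, adjusted p = 9.82e-08). TRAF1 was higher with MEL-18 T334A against the vector (0.48 ± 0.13) and against MEL-18 WT (0.64 ± 0.13). FAIM, an inhibitor of FAS-induced death, was lower with MEL-18 T334A in both (-0.17 ± 0.050 and -0.16 ± 0.050). The death effector domain genes DEDD and PEA15 fell with MEL-18 WT by 0.22 (SE 0.042) and 0.21 (SE 0.034), while NOL3 rose by 0.21 ± 0.055. With MEL-18 T334A, PEA15 was also lower (-0.095 ± 0.034) and NOL3 higher (0.14 ± 0.056), while DEDD was not called. DEDD was higher in MEL-18 T334A than in MEL-18 WT by 0.23 ± 0.042. RIPK3, a kinase needed for necroptosis, was at 0.565, 0.431 and 0.456 CPM in the 3 groups.

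For other caspases and the mitochondrial arm, 28 of 29 were tested, with 3 higher and 8 lower, 2 higher and 8 lower, and 3 higher and 6 lower. These were 39.3%, 35.7% and 32.1% of the list, beside 28.8%, 45.9% and 40.9% of all genes. The second and the third thus lay below the share of all genes. Called higher were 14.4%, 23.4% and 21% of all genes, and called lower 14.4%, 22.5% and 20%. MCL1, a survival protein of the BCL2 family, fell from 384 CPM to 332 with MEL-18 WT (-0.21 ± 0.030) and to 296 with MEL-18 T334A (-0.37 ± 0.031, edgeR adjusted p = 1.65e-10). BCL2A1, another survival gene, was scarce and rose with MEL-18 WT from 0.481 to 1.29 CPM (1.41 ± 0.23, adjusted p = 3.02e-05), and was lower in MEL-18 T334A than in MEL-18 WT (-0.86 ± 0.21). CYCS, cytochrome c, fell with MEL-18 WT by 0.20 (SE 0.038). ENDOG rose (0.49 ± 0.13) and HTRA2 fell (-0.28 ± 0.069) with MEL-18 T334A. CASP6 and BAD were higher in MEL-18 T334A than in MEL-18 WT by 0.21 ± 0.062 and 0.20 ± 0.048, and HTRA2 was lower (-0.19 ± 0.069). BID, which caspase-8 cleaves to reach the mitochondria, was not called, at 31.2, 32.2 and 31.3 CPM.

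**Figure D4:**
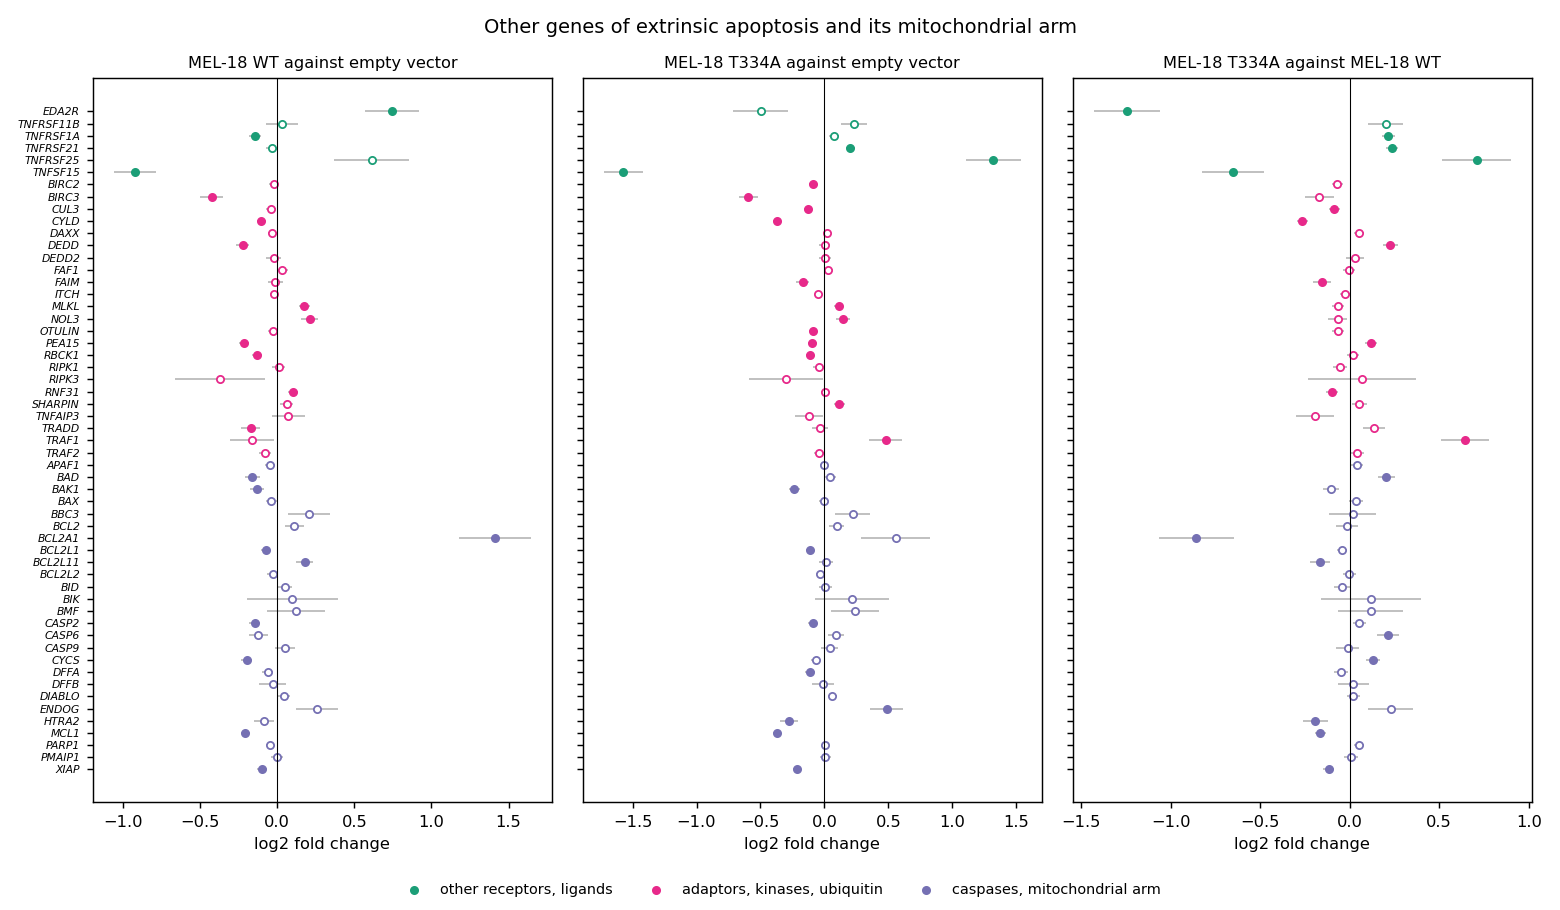
Log2 fold change ± SE (x axes differ in range between panels) of the tested genes of the 3 lists, leaving out some that are not reported here, coloured by list, with filled circles for genes called by edgeR. Most lie within 0.3 of 0, and TNFSF15, TNFRSF25, EDA2R and BCL2A1 lie farthest out in at least 1 comparison.

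The genes whose log2 CPM followed each member most closely over the 9 libraries, among 11940 genes with at least 2 CPM, lay on other chromosomes in all 27 cases. A member's own chromosome held only 502 to 939 of the 14738 tested genes, so most genes lay on other chromosomes in any case. These likenesses are descriptions over libraries that share their groups. The number of genes with r above 0.9 ran from 3 for CASP8 to 717 for TNFRSF10D, with 407 for FAS and 284 for TNFSF10. TNFSF10 was nearest to TMED4, RABGEF1 and NCAPG2 (Pearson r 0.992, 0.991 and 0.990), all on chromosome 7. FAS was nearest to DLK2, MFAP3L and the cathepsin gene CTSH (0.991, 0.9897 and 0.989). TNFRSF10A was nearest to KMT2E, PTTG1IP and RUSC1 (0.985, 0.976 and 0.973) and TNFRSF10B to LGALS3BP, LRRC8A and ZNF687 (0.989, 0.986 and 0.9799). TNFRSF10D was nearest to the ferritin gene FTL, PIK3CB and MOB1A (0.994, 0.991 and 0.98999). FADD was nearest to SOX12, PIAS2 and CUTA (0.985, 0.983 and 0.981). CFLAR was nearest to ELF1, PDP2 and PRRC1 (0.976, 0.966 and 0.966), CASP10 to TMEM8B, ST3GAL2 and PYGB (0.960, 0.953 and 0.939), and CASP8 to GOPC, ARL1 and SMIM11 (0.923, 0.915 and 0.908).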

How the data were processed

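Each library has 1 deposited file of read counts, a whole number for every gene symbol. The submitters' processing notes name hg19, CASAVA 1.8, STAR 2.5.3a, Subread 1.5.3 and featureCounts. Which gene annotation, strand setting and treatment of shared reads the authors used for these counts is not given in the sources used here. Totals ran from 31643722 to 37005302 counts and limit the precision of low genes.

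Counts were analysed in edgeR 4.0.16 (R 4.3.3): filterByExpr (14738 of 26364 genes kept), TMM, and a two-sided quasi-likelihood F test on group means of all 9 libraries, with Benjamini-Hochberg adjustment over all tested genes. Each SE was derived by dividing the size of a log2 fold change by √F. Fits were tested on simulated data. Gene order came from RefSeq (GRCh38.p14), with 23623 genes placed by symbol, 1571 by a synonym and 1170 not placed. In the neighbour fit, the median deviation of 20 tested genes on each side entered as an offset per group. Other members could be among these genes, whereas the neighbour medians and ranks given above left members out. Alternatives used DESeq2 1.42.0, limma 3.58.1 (voom), other scalings and filters, and each library's removal.

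The members and gene lists were chosen with earlier results of these data known. All members are named; from each list, up to 4 called genes with the largest change per comparison were named, and the 3 genes most like each member; further genes were named after their values were seen, and some genes the rule names are not reported here. Replicate pairs within groups differed by more than sampling noise (chi-square of 1.52 to 4.17 per degree of freedom).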

Additional observations from a re-analysis of the deposited data

How the results depend on the processing

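Over the 27 member changes, RLE factors, a filter of 1 CPM in 3 libraries, limma voom and a fit of the compared groups alone changed no call or direction. Against a minimum of 1.5-fold, the calls fell to 191, 378 and 187 genes, 1, 0 and 0 members and 1, 2 and 1 pathway genes in MEL-18 WT against vector, MEL-18 T334A against vector and MEL-18 T334A against MEL-18 WT. With library totals, 3 members were called in MEL-18 T334A against vector, and the higher genes were 60.1%, 64.0% and 58.4% of those called, against 50.1%, 51.1% and 51.2% with TMM. With the neighbour offset 3 members were called with MEL-18 WT: TNFSF10 and FAS as before, and TNFRSF10D. It reversed TNFRSF10A (-0.064) and TNFRSF10B (-0.16) between the MEL-18 groups, TNFRSF10D (0.14) and FADD (-0.057) with MEL-18 WT, TNFSF10 with MEL-18 T334A (0.011) and CFLAR between the MEL-18 groups (0.014). Over 10 genes a side, a setting chosen after seeing the data, the first 5 were -0.040, -0.089, 0.13, -0.094 and 0.020. The cause of these changes was not tested. Leaving out each library in turn gave 3430 to 4666, 5843 to 6857 and 4953 to 6315 genes, 4 to 5, 4 to 5 and 5 to 6 members, and 15 to 24, 19 to 27 and 17 to 22 pathway genes. Uncalled values that changed sign were CASP8 (-0.029 to 0.030) and CFLAR (-0.058 to 0.0032) between the MEL-18 groups and CASP10 with MEL-18 T334A (-0.0050 to 0.090). Deviations of same-numbered libraries correlated at -0.34 to 0.15 and those of other numbers at -0.26 to 0.36. These ranges overlapped, but with deviations from means of 3 libraries they cannot exclude a pairing by number. The replicate block left 4, 5 and 6 members called, with CFLAR lost (-0.11, adjusted p = 0.0503). Depth limited TNFRSF10C, with 0 to 5 reads a library.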
